A study of Mus musculus with 4 samples.

Results

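The miR-199a and miR-214 cluster was taken here as 3 probes, mmu-miR-199a-3p, mmu-miR-199a-5p and mmu-miR-214 (written without the mouse prefix from here on), chosen by probe name from 700 mouse microRNA probes with 5 spots each. They were read on 4 one-colour arrays from mice bearing 4T1, a metastasizing mammary carcinoma cell line. Per the labels, 20 female Balb/s mice received 50000 cells each. When the tumour reached 1 cm3, the primary tumour was given sham radiation in 10 mice and 10 Gy in the other 10, it was removed by mastectomy, and metastases grew to the end point. The 4 arrays are the primary tumour after sham treatment, the primary tumour after 10 Gy, metastases of sham-treated mice and metastases of mice whose primary tumour had received 10 Gy. There was 1 array per group, so no difference has a replicate check or a p-value. The labels name neither the organ of the metastases nor how many mice an RNA came from, and no uninjected tissue was among the samples.

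Mature microRNAs are cut in pairs from hairpin precursors, 1 from each arm, and choose their messenger RNA targets mainly through the seed, bases 2 to 8 from the 5′ end. Dnm3os is a long noncoding RNA transcribed opposite to Dnm3, and its transcription is driven in mesenchymal cells by the factor Twist1. It is the host transcript of both miR-199a and miR-214. These microRNAs are known from fibroblasts, developing skeleton and fibrotic tissue, and in tumours they are mostly attributed to the stroma. miR-199a-5p is known to target caveolin-1.

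The target sequences show which RNAs each probe can and cannot separate. They are given from the deposited tables with the seed in capitals, for the members and then for the other arm of the miR-214 hairpin (miR-214*), the miR-199b arm nearest to miR-199a-5p (miR-199b*) and the only other probe with the miR-214 seed (miR-761).
miR-199a-3p: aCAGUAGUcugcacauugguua
miR-199a-5p: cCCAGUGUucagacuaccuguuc
miR-214: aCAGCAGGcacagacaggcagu
miR-214*: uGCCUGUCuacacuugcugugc
miR-199b*: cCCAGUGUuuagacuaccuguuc
miR-761: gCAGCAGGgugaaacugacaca

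The members have 3 different seeds. In RefSeq (GRCm38.p6), the miR-214 target matched only Mir214, at chr1:162223438-162223459 on the plus strand, and miR-214* matched the other arm of the same hairpin, at chr1:162223397-162223418. The miR-199a-5p target matched Mir199a-2 at chr1:162217844-162217866 (plus strand) and Mir199a-1 at chr9:21496537-21496559 (minus strand). The miR-199a-3p target matched those genes and also Mir199b, at chr2:32318524-32318545 on the plus strand. Its signal therefore pools 3 genes, of which only Mir199a-2 is next to Mir214. Mir199a-2 and Mir214 both lie within Dnm3os, which is noncoding, and within the span of Dnm3, with 5444 bases between their hairpins. Mir199a-1 lies within Dnm2 and Mir199b within Dnm1. From 1 at the 5′ end, the target of miR-199b* differs from that of miR-199a-5p by the single substitution C10U, so that probes for these arms need not give separate signals. The closest other target on the array was 8 edits away from each of miR-199a-3p and miR-214.

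The hairpins of the chromosome 1 pair are shown with the arms that have a probe in capitals, the 5′ arm first (RefSeq, GRCm38.p6, plus strand, chr1:162217814-162217923 and chr1:162223368-162223477).
Mir199a-2: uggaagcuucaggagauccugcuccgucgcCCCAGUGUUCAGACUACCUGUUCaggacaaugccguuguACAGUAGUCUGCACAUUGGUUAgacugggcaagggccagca
Mir214: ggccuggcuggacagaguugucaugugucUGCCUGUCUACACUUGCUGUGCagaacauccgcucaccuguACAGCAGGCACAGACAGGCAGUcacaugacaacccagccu

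The arrays differed in background, which bears on every value that follows. The 180 empty spots had a median intensity of 171.5 scanner units for the sham primary tumour, 416.9 for the irradiated primary tumour, 177.2 for metastases of sham mice and 252.4 for metastases of irradiated mice. Detection required 3 or more of the 5 spots to lie above 95% of the chip's empty spots, and 337, 186, 459 and 339 probes were detected in the same order. The ± values are SDs over spots of a chip, and cover neither labelling and hybridisation nor the spread between mice.

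miR-199a-3p, the arm shared by all miR-199 genes, was brightest in metastases. Its mean intensity was 622 ± 83.2 in the sham primary tumour and 838 ± 45.8 in the irradiated one. It was 4047 ± 214.4 in metastases of sham mice and 2097 ± 211 in metastases of irradiated mice. The lowest of the metastasis spots, 1805, lay above the highest primary tumour spot, 887, and all 5 spots were above the empty spots on each array. After subtraction of the empty spots, both primary tumours were at a like level, 450.2 and 421.4 units.

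miR-214 had its 4 levels in another order. Its mean intensity was 952 ± 70.3 in the sham primary tumour and 2227 ± 337 in the irradiated one, against 2147 ± 37.5 and 1695 ± 278 in metastases of sham and irradiated mice. The sham primary tumour was the low array in these intensities, with a highest spot of 1044, and the spots of the other arrays ran from 1358 to 2570. The irradiated primary tumour overlapped both metastasis arrays, whose own spots did not overlap each other.

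miR-199a-5p, the opposite arm of the miR-199a hairpins, lay close to the empty spots. It was at 209 ± 12.6 in the sham primary tumour, only 1.22 times the empty spots, and at 440 ± 31.4 in the irradiated primary tumour, 1.05 times. In metastases it was at 343 ± 17.9 (1.94 times the empty spots) for sham mice and at 328 ± 33.6 (1.30 times) for irradiated mice. In the irradiated primary tumour 1 of 5 spots passed, so miR-199a-5p was not detected there. The related miR-199b* was detected in metastases only, at 106.7 and 37.3 units above the empty spots, and miR-761 was detected on none of the 4 arrays.

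miR-214*, the passenger strand cut from the same hairpin as miR-214, was bright on a single array. It was at 1194 ± 120 in the sham primary tumour, 6.96 times the empty spots. It was at 490 ± 47.8 in the irradiated primary tumour (1.17 times), 203 ± 10.99 in metastases of sham mice (1.15 times) and 289 ± 37.2 in metastases of irradiated mice (1.15 times). The spots of miR-214 and miR-214* lie in adjacent rows of the same chip columns. The sham primary tumour was thus the array where miR-214 was lowest and miR-214* highest.

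**Figure D1:**
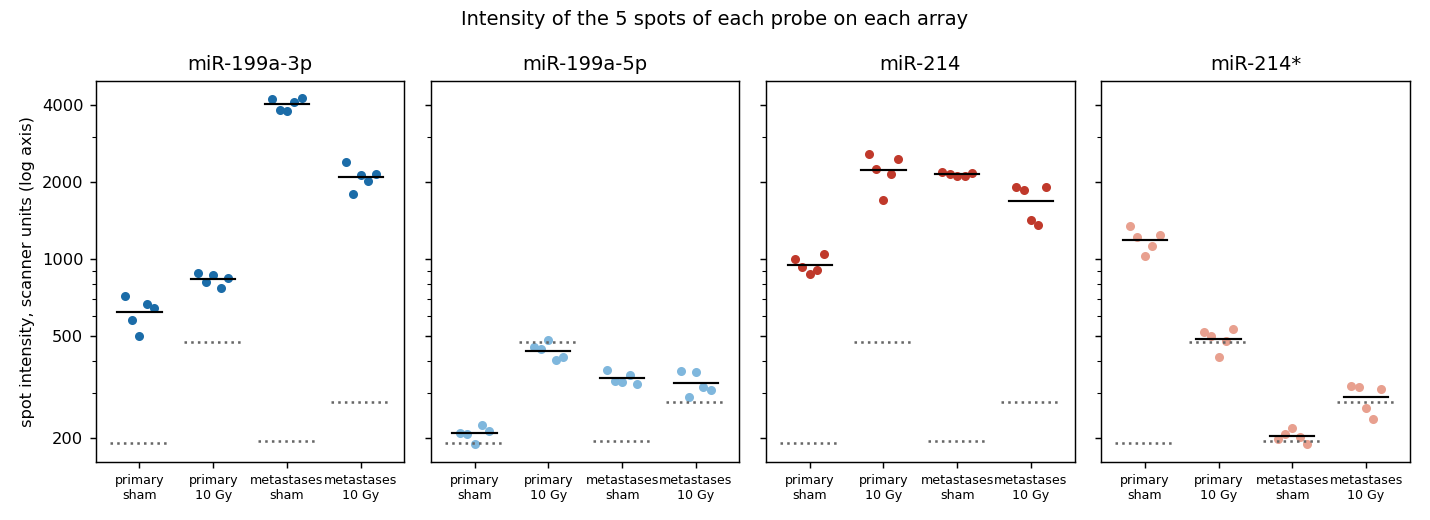
Intensity in scanner units (log axis) of the 5 spots of miR-199a-3p, miR-199a-5p, miR-214 and miR-214* on each of the 4 arrays; black bars are means over 5 spots and dotted lines the level that 95% of the empty spots of the array lie below. In these intensities miR-199a-3p separates metastases from primary tumours, miR-214 is low only in the sham primary tumour (mean 952), and miR-214* is far above the dotted line only there (mean 1194). After normalization the miR-214 log2 levels of sham primary tumour and sham metastases are closer, 9.65 and 10.16, and the irradiated primary tumour is highest at 11.93.

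To compare arrays, intensities were background-corrected, taken to log2, averaged over spots and quantile normalized over the 700 probes. A difference of 1 on the log2 scale (2-fold) was the call, with no test. A probe detected on 1 of 2 arrays was counted by a lower bound, and the ± of a difference is the SD over 5 pairs of spots.

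The first comparison sets metastases against the primary tumour in sham-treated mice. miR-199a-3p was higher in metastases by 2.33 ± 0.17 on the log2 scale, which is 5.01-fold, from a normalized level of 8.89 to 11.22. miR-199a-5p was higher by 0.61 ± 0.14 (1.53-fold) and miR-214 by 0.51 ± 0.09 (1.43-fold). miR-214* was lower, with a difference of -3.27 ± 0.29 against a level only 25.7 units above the empty spots, and of -3.81 to -2.30 over 9 settings. Of the 3 members 1 was thus at least 2-fold higher and 0 lower, against 11.8% higher and 10.6% lower (22.4% in either direction) among the 473 probes detected on either array. For miR-199a-3p, 11 of 323 probes detected on both arrays had a larger positive difference, and for miR-214 91 had. For miR-214*, 11 had a lower difference. The normalized spots did not overlap between the arrays for any of the 3 members, which also held for 48.6% of the probes.

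The differences of miR-199a-3p and miR-214 lay 1.81 ± 0.14 apart on the log2 scale. That gap ranged from 1.56 to 1.95 over 10 settings. In a bulk sample, fewer cells of a type and less RNA per cell cannot be told apart, and the genes that feed the miR-199a-3p signal cannot be told apart either. Without normalization the difference of miR-199a-3p was 2.88 and that of miR-214 was 1.23, past 2-fold.

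After 10 Gy the same site comparison gave miR-199a-3p as higher in metastases by 0.89 ± 0.12 (1.86-fold), short of the call. miR-214 was lower in metastases, with a difference of -1.38 ± 0.19 (2.60-fold), from 11.93 to 10.55. miR-199a-5p, not detected in the primary tumour, had a bound of 0.22 on the log2 scale (at least 1.17-fold higher), below the SD over spot pairs of 0.30. Its measured difference of 0.58 turned to -0.61 with scaling to the 75th percentile of probes detected on all arrays. miR-214* differed by -0.71 ± 0.40. Among 344 probes, 10.2% were at least 2-fold higher and 11% lower (21.2% in either direction), and of the members 0 were higher and 1 was lower. The normalized spots of miR-199a-3p and miR-214 did not overlap between the arrays, as for 43.6% of the probes, while those of miR-199a-5p did. The gap between miR-199a-3p and miR-214 was 2.27 ± 0.30, with a range of 2.07 to 2.32 over 10 settings. The sizes depended on the scaling: without normalization miR-199a-3p was higher by 1.86 and miR-214 was at -0.32.

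**Figure D2:**
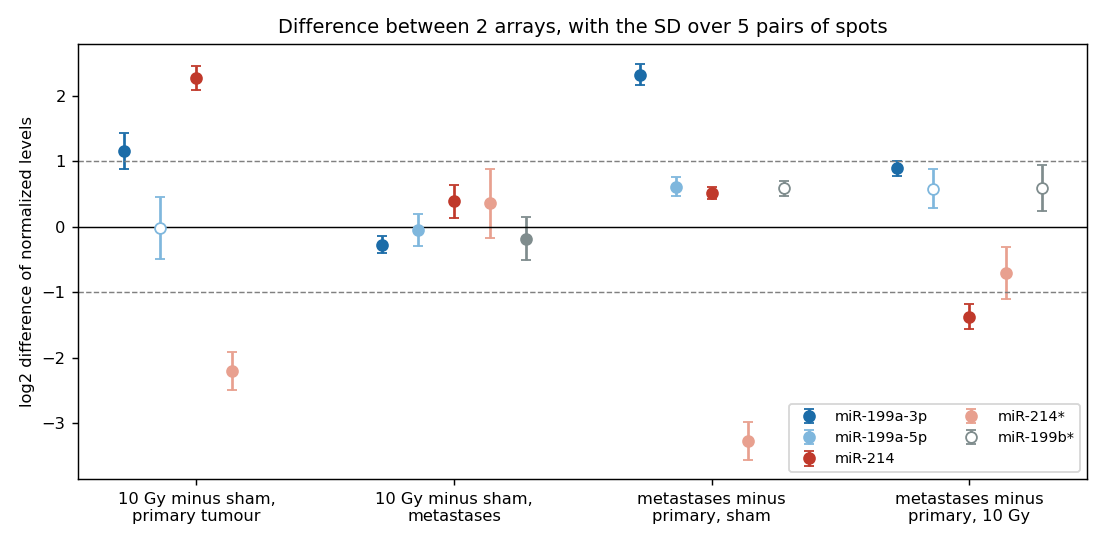
Log2 differences of normalized levels between pairs of arrays for the members, miR-214* and miR-199b*, with the SD over 5 pairs of spots as error bars; open symbols are probes detected on only 1 of the arrays, dashed lines mark 2-fold, and probes detected on neither array are left out. miR-199a-3p stands highest between sites without radiation (2.33), miR-214 after irradiation of the primary tumour (2.28), and miR-214* lies below 0 in both of these comparisons (-3.27 and -2.20).

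The next comparison asks how the primary tumour differed after 10 Gy. miR-214 was higher by 2.28 ± 0.18 on the log2 scale, which is 4.85-fold, from 9.65 to 11.93. miR-199a-3p was higher by 1.16 ± 0.27 (2.23-fold), but at -0.012 without normalization, so its direction depends on the scaling. miR-199a-5p was detected only in the sham tumour and differed by -0.018 ± 0.47, and no bound could be given for it. Its direction also depends on the scaling, with 0.51 and 1.46 when arrays were scaled to the 75th percentile of all probes and of those detected on all arrays. miR-214* was lower, with a difference of -2.20 ± 0.29 (4.60-fold), the opposite sign to that of the other arm of its hairpin. Its level in the irradiated tumour was only 1.17 times the empty spots. Of the members 2 were at least 2-fold higher and 0 lower, against 14.7% higher and 13% lower (27.7% in either direction) of 339 probes. Without normalization, by the measured difference alone, 2.06% of these probes were higher and 28% lower. The normalized spots of these 2 members did not overlap between the arrays, as for 55.5% of the probes.

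For miR-214, 4 of the 184 probes detected on both primary tumour arrays had a larger positive difference, and 40 had for miR-199a-3p. For miR-214*, 13 had a lower difference. The median difference of these 184 probes was 0.22 with normalization and -0.63 without. Against the median of all 339 probes, which was -0.061 with normalization and -0.29 without, miR-199a-3p was 1.22 higher with normalization and 0.28 higher without, and miR-214 2.34 and 1.41 higher. Over all settings miR-214 was higher in the irradiated tumour by 1.12 to 2.54 and miR-214* differed by -2.62 to -1.20. miR-214 exceeded miR-214* in its difference by 4.48 ± 0.16, and by 3.72 to 4.76 over 10 settings. It exceeded miR-199a-3p by 1.12 ± 0.44, with a range for miR-199a-3p minus miR-214 of -1.46 to -1.10.

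In metastases the arrays of irradiated and sham mice were close. miR-214 differed by 0.39 ± 0.25 (10 Gy minus sham), miR-199a-3p by -0.27 ± 0.13, miR-199a-5p by -0.048 ± 0.25 and miR-214* by 0.36 ± 0.53. None of the members (0 of 3) reached 2-fold, against 2.29% higher and 2.49% lower (4.78% in either direction) of 481 probes. Only miR-214 of the 3 had normalized spots that did not overlap, as had 19.5% of the probes. Without normalization miR-199a-3p was at -1.03 and miR-214 at -0.43, while the median was -0.20 over all 481 probes and -0.50 over the 317 detected on both arrays.

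The responses to radiation of the primary tumour and of metastases were set against each other as a difference of differences (metastases minus primary tumour). It was -1.89 ± 0.20 for miR-214, -1.43 ± 0.25 for miR-199a-3p, -0.029 ± 0.36 for the dim miR-199a-5p and 2.56 ± 0.40 for miR-214*. Values of at most -1 were found for 11.8% of 374 probes and of at least 1 for 12%. These were the probes detected on 2 or more of the 4 arrays, taken by measured differences without bounds. Without normalization the values for miR-214 and miR-199a-3p were -1.56 and -1.02. The comparisons share arrays, so they are not independent of each other.

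**Figure D3:**
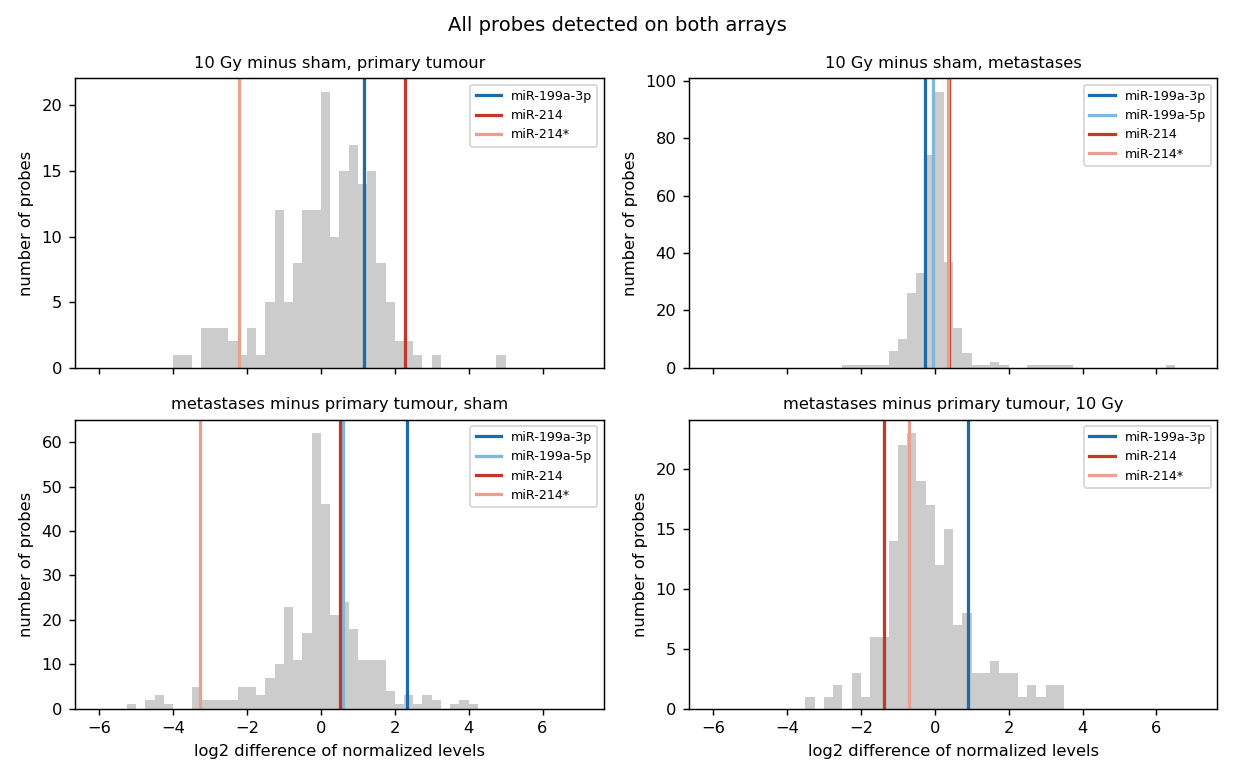
Number of probes (grey) by log2 difference of normalized levels for each of the 4 comparisons, over the probes detected on both arrays, with the members and miR-214* as coloured lines. Between sites without radiation miR-199a-3p lies in the upper tail and miR-214 near the bulk, and in the primary tumour after 10 Gy miR-214 lies in the upper tail and miR-214* in the lower.

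The profile of each member over the 4 arrays was also set against the probes detected on all of them, by the root mean square (RMS) difference of log2 levels after subtraction of each probe's mean. For miR-199a-3p the nearest of 179 probes were miR-30d (0.21), miR-181a (0.30), miR-34a (0.33), miR-146b (0.34) and miR-16 (0.34). The median over all was 0.99, and miR-214 came at rank 109 with an RMS difference of 1.12. For miR-214 the nearest were miR-532-5p (0.21), miR-378 (0.24), miR-140* (0.26), miR-31 (0.27) and miR-93 (0.28), with a median of 0.92 over all. miR-199a-3p was at rank 116 in that order and miR-214* at rank 159. miR-199a-5p, with its small range, was nearest to let-7d (0.034), miR-92b (0.093), let-7e (0.095), let-7a (0.10) and let-7f (0.14). For miR-214*, miR-16* (0.12), miR-1306 (0.18) and miR-297a (0.24) came first. The measure rests on 4 arrays and is a description.

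**Figure D4:**
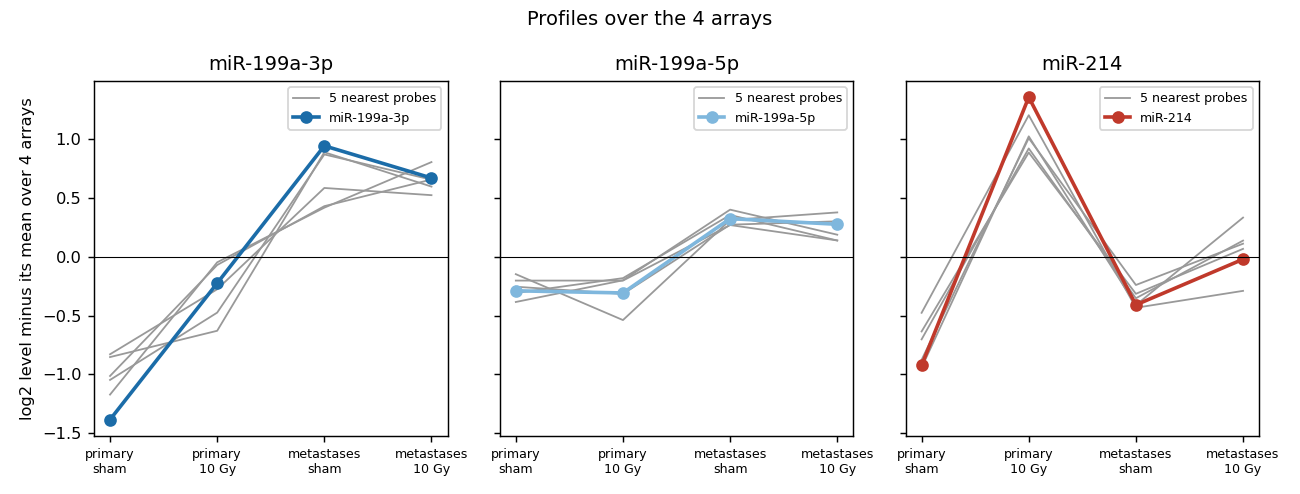
Normalized log2 level minus its mean over the 4 arrays for each member (coloured) and its 5 nearest probes (grey). miR-199a-3p runs from -1.38 in the sham primary tumour to 0.94 in metastases of sham mice, while miR-214 peaks at 1.36 in the irradiated primary tumour.

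Other microRNAs of fibroblasts and smooth muscle were counted as a list of 14. Of these, 12 were detected in the sham primary tumour, 10 in the irradiated one and 13 on each metastasis array. Of all 700 probes, 337 and 186 were detected in the sham and irradiated primary tumours, and 459 and 339 in metastases of sham and irradiated mice. Between sites without radiation, 7 of 13 on the list were at least 2-fold higher in metastases and 0 lower, with a median difference of 1.26. Over all 473 probes 11.8% were higher and 10.6% lower, with a median of 0.057. miR-143 and miR-145, made from a shared transcript in smooth muscle and fibroblasts, were higher by 3.92 ± 0.10 and 3.60 ± 0.06. miR-100 differed by -0.17 ± 0.06 and the Hox-linked miR-10b by -0.69 ± 0.15. After 10 Gy, 5 of 13 were higher in metastases (10.2% of all probes) and 0 lower (11%), with a median of 0.75 (0.54 with bounds), among them miR-143 by 2.34 ± 0.24, where miR-214 was lower. In the irradiated primary tumour 3 of 12 were at least 2-fold higher than in the sham tumour (14.7% of all probes) and 0 lower (13%). These were miR-143 (2.12 ± 0.28), miR-145 (1.78 ± 0.20) and miR-140* (1.62 ± 0.30), and the median of the list was 0.39, or -0.52 without normalization. Without normalization only miR-143 was past 2-fold higher, at 1.05, with miR-145 at 0.53 and miR-140* at 0.48, and 2 of the list were past 2-fold lower. In metastases 0 of 13 were higher after 10 Gy (2.29% of all probes) and 1, miR-29c (-1.13 ± 0.19), was lower (2.49%). Without normalization 6 of the 13 were past 2-fold lower, against 14.8% of all probes, and the median of the list was -0.76.

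Of microRNAs linked to fibrosis as promoting it, a list of 5 without the members, 1 of 4 detected was at least 2-fold higher in metastases without radiation (11.8% of all probes), miR-34a at 1.44 ± 0.18, and miR-21 differed by 0.72 ± 0.04. In the irradiated primary tumour 1 of 4 detected, miR-132, was higher by 1.42 ± 0.13 (14.7% of all probes), but by 0.43 without normalization, short of 2-fold. Of 15 linked to fibrosis as limiting it, 13 were higher in metastases without radiation (11.8% of all probes) and 0 lower (10.6%), with a median of 1.92. The 13 include 3 epithelial markers, miR-200a, miR-200b and miR-200c. They also include 3 probes counted in the fibroblast list, miR-29a, miR-29b and miR-29c, so that the lists are not separate. A further part of the 13 is 1 family, miR-30a, miR-30b, miR-30c, miR-30d and miR-30e, so the 13 are not independent of each other. Examples are miR-26a (1.29 ± 0.07) and miR-30c (1.97 ± 0.17), and the list also holds miR-30d, whose profile was nearest to that of miR-199a-3p. In the irradiated primary tumour 1 of 12 was higher, below the 14.7% of all probes: the muscle microRNA miR-133a, by 3.21 ± 0.21.

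Markers of other cells differed between the same arrays. The sums given here are of intensities without normalization, whereas the log2 differences are normalized. The summed intensity above the empty spots of 7 epithelial microRNAs was 124 in the sham and 74.7 in the irradiated primary tumour, with 2 and 1 of 7 detected, against 7327 and 7049 in metastases of sham and irradiated mice, with 7 detected on each. Of these, miR-200a, miR-200b, miR-141 and miR-205 were detected on neither primary tumour array. miR-200c and miR-203 were detected in the sham primary tumour and miR-429 in the irradiated one. The irradiated primary tumour chip had the highest median of empty spots, 416.9, and the fewest probes detected, 186. For endothelial miR-126 the sums were 6031 and 4282 in the primary tumours and 32134 and 22410 in metastases. For 3 erythroid microRNAs they were 2702 and 846 against 20734 and 11988. Of these probes, miR-126-5p and miR-144 were detected only in metastases of sham mice. With normalization the irradiated minus sham primary tumour differences were 0.65 for miR-126-3p, -0.41 for miR-451 and 0.42 for miR-486, all within 2-fold. The 4 muscle microRNAs summed to 9585 and 4099 in the primary tumours and to 366 and 12986 in metastases, but they did not move together. In the irradiated primary tumour miR-1, miR-133a and miR-133b were higher by 4.82, 3.21 and 2.64 on the log2 scale, and miR-206 was at -0.98. Between sites without radiation miR-206 had a difference of -5.17, and miR-1, miR-133a and miR-133b differed by 0.034, 0.10 and 0.071. The 3 myeloid microRNAs summed to 6806 and 264, and to 7544 and 4118. Only miR-223 of them was detected in the primary tumours, with a difference of -2.91 after 10 Gy. Hepatocyte markers stayed at 835 or below, with miR-122 detected in metastases only, and 2 lymphocyte markers summed to 966 and 354, and to 5674 and 1517. Of the lymphocyte markers, miR-155 differed by -0.13 with normalization in the irradiated primary tumour, where miR-150 was not detected. The part of all these markers in the differences of the members was not tested.

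The directions of the differences held to unequal degrees when the processing was altered. miR-199a-3p was higher in metastases than in the primary tumour under all 10 settings in both arms, by 1.99 to 2.88 without radiation and by 0.80 to 1.86 after 10 Gy. miR-214 was higher in metastases under all 10 settings without radiation, by 0.43 to 1.23, and lower under all 10 after 10 Gy, at -1.40 to -0.32. In the irradiated primary tumour miR-214 was past 2-fold under all 10 settings.

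**Figure D5:**
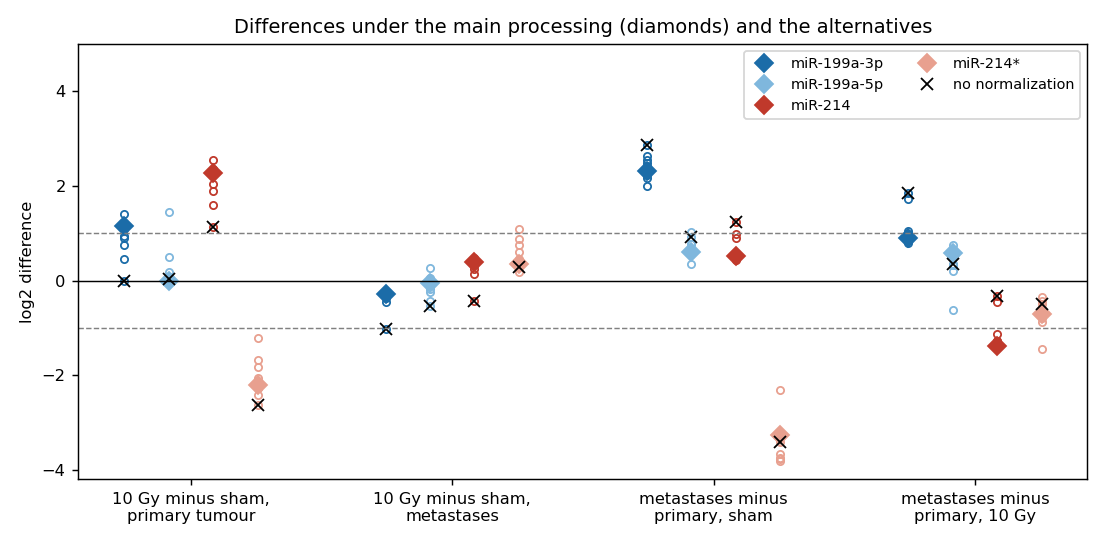
Log2 differences of the members and miR-214* in the 4 comparisons under the main processing (diamonds), without normalization (crosses) and under the other alternatives (open circles); dashed lines mark 2-fold. The radiation difference of miR-199a-3p in the primary tumour runs from -0.012 to 1.41, while that of miR-214 stays between 1.12 and 2.54.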

How the data were processed

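A service provider tailed 2 µg of total RNA, added a tag and read the chips in Cy3, per the labels' protocols. Each deposited scanner table lists linear mean intensity values by spot, per the file headers. The scanner software is not given in the sources used here, and empty spots far above 0 show that background had not been subtracted. Commas between digits were removed. The authors' own table gives 1 intensity per probe with background taken off, whose background choice is not given in the sources used here, and it served only as an alternative.

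All 3968 spots of an array were corrected with normexp and an offset of 50, which shrinks differences of dim probes (limma 3.58.1 in R 4.3.3). Values were taken to log2, the 5 spots averaged and the 4 arrays quantile normalized over the microRNA probes. The arrays' number limits the precision. Where a probe was detected on 1 of 2 arrays, the bound sets the detected level against the dim array's own level or its lowest detected level, whichever is higher. The steps were tested on data simulated from the sham primary tumour array alone, with known changes in some probes. The simulated arrays thus shared 1 background, so the test does not cover the differences in background between the real arrays. Sequences come from the deposited tables and RefSeq (GRCm38.p6), matched by identity. Named were the members, probes sharing their hairpin or seed, the 5 nearest profiles, and members of 3 lists and of cell type markers. The members and lists were chosen with earlier results of these data known. The alternatives were other scalings, background corrections, spot medians, stricter detection and the authors' table.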

Additional observations from a re-analysis of the deposited data

Results flagged for a closer look

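In these results a member's difference had opposite directions in 2 groups, with 1 array each, so that the difference between them was not tested. miR-199a-3p had a log2 difference after 10 Gy of 1.16 in primary tumours, where it was higher, and of -0.27 in metastases. In the primary tumour that difference was -0.012 without normalization, which leaves no opposite direction. miR-214 was higher in metastases than in the primary tumour without radiation, by 0.51, and lower after 10 Gy, at -1.38. That opposition was present under all 10 settings, with 1.23 and -0.32 without normalization, and both differences use the primary tumour arrays, in which miR-214 itself differed by 2.28.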

How the results depend on the processing

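The median difference of the 3 members in the primary tumour after 10 Gy was 1.16. It became 0.039 without normalization, 0.76 with cyclic loess, 0.51 with scaling to the 75th percentile of all probes, 1.46 with that of the probes detected on all arrays, and 1.72 with miR-199a-5p left out, a choice made after seeing the data. For miR-199a-3p alone it became -0.012 without normalization. In metastases the median of -0.048 became -0.53 without normalization and 0.26 with scaling to probes detected on all arrays. Between sites without radiation, 0.61 became 1.23 without normalization, 0.78 with cyclic loess, 0.99 and 0.90 with the 75th percentile scalings in the same order, 0.78 with the smaller offset of 16, 0.43 without background correction, 1.02 with the authors' table and 1.42 with miR-199a-5p left out. After 10 Gy, 0.58 became 0.21 and -0.61 with those scalings and -0.24 with miR-199a-5p left out. The members' median difference of differences (metastases minus primary tumour), -1.43, became -1.12 with cyclic loess, -0.91 with scaling to all probes and -1.02 without normalization. The number of members past 2-fold in the irradiated primary tumour went from 2 to 1 without normalization, with cyclic loess, with scaling to all probes, without background correction and with the authors' table. It went from 0 to 1 in metastases without normalization, from 1 to 2 between sites without radiation without normalization and with the authors' table, and from 1 to 2 between sites after 10 Gy with cyclic loess. The cause was not tested. With the authors' table no median was computed for the comparisons that use the irradiated primary tumour, where it lists no miR-199a-5p. Subtracting a linear trend of the empty spots over the chip or taking the median of spots moved none of these medians by more than the SD over spots. Signal over background limits miR-199a-5p, at 1.05 to 1.94 times the empty spots. No paired analysis was possible because each group has 1 array.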
